A study of Rattus norvegicus with 32 samples.

Results

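Nuclear pore genes, with Nup214 at their head, were followed through RNA sequencing of the rat nucleus accumbens shell. Nup214 had been chosen because it was higher with the anxiety cue than with the neutral cue in vehicle rats. The other genes were taken by name alone: every symbol of the form Nup and a number, plus Tpr, Rae1, Pom121, Ndc1, Aaas and Sec13. This gave 26 of the 34322 gene symbols in the count table, and all 26 were among the 17059 genes that passed the filter on low counts. Seh1l, the other gene the choice asked for, is not analysed here.

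The 32 libraries fell into 4 groups of 8, all from rats labelled wild type. Every group had been through shock conditioning in the presence of a cue, a lemon odor for the anxiety cue groups and a neutral cue for the others. Cannabidiol (CBD), which comes from cannabis and does not intoxicate, or its vehicle was given ahead of the anxiety tests. The groups were therefore CBD with anxiety cue, CBD with neutral cue, vehicle with anxiety cue and vehicle with neutral cue. The sources used here give no sex, age or dose, nor the animal behind a library, so p-values measure the spread between libraries, which may be technical. Total counts ran from 11.65 M to 24.00 M per library, and the 26 genes had between 54 and 3105 counts in a library.

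The nuclear pore is the channel through which RNA leaves the nucleus and proteins enter it. Its parts are built on a repeating plan: a Y-shaped outer coat on each face, an inner ring, membrane proteins that hold the pore in the envelope, channel proteins rich in phenylalanine and glycine repeats, filaments on the cytoplasmic face and a basket on the nuclear face. Nup214 sits on the cytoplasmic face with Nup88 and Nup62. There it binds the export receptor Xpo1 and the helicase of the Ddx19 family that strips proteins from messenger RNA as it emerges. Pore proteins are long-lived in neurons, and several of them, Nup98 and Nup153 among these, also bind chromatin away from the pore.

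The series text gives the tissue as the shell of the nucleus accumbens, whose main cells are medium spiny neurons. Drd1, the dopamine receptor of a main class of these neurons, was present in every library, at 56.6 to 475 CPM (counts per 1 M, with library sizes adjusted by TMM). Libraries stood apart in genes of neighbouring or other tissue. Slc17a6, the glutamate transporter of subcortical neurons and scarce in striatum, reached 20 CPM or more in 5 libraries, 1 with CBD and anxiety cue, 0 with CBD and neutral cue, 1 with vehicle and anxiety cue and 3 with vehicle and neutral cue. Plin1, a fat cell gene, reached 5 CPM or more in 10 libraries, 2, 0, 3 and 5 in the same order of groups. Alb, a liver gene, reached 20 CPM or more in 10 libraries, 4, 4, 2 and 0 in that order. Summed over 12 medium spiny neuron genes, the level was 2730 to 9630 CPM with CBD and anxiety cue, 5630 to 8160 with CBD and neutral cue, 1820 to 9250 with vehicle and anxiety cue and 1520 to 7840 with vehicle and neutral cue. Summed over 6 septal and pallidal genes it was 41.4 to 183, 41.1 to 85.9, 48.3 to 234 and 60.2 to 276 CPM in that order. Summed over 6 fat cell genes it was 0.907 to 39.7, 1.26 to 4.35, 1.09 to 50.4 and 0.334 to 88.7 CPM. Summed over 8 oligodendrocyte genes it was 5030 to 9790, 3910 to 8240, 5810 to 11700 and 7640 to 11400 CPM, and over 6 microglia genes 190 to 248, 169 to 247, 173 to 269 and 186 to 271 CPM, in the same order. In these 5 lists 0 genes were at 0 throughout a group. In bulk tissue, fewer cells of a type and less RNA per cell cannot be told apart.

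Promoter sequence was at hand for 24 of the 26 genes, from RefSeq on the build GRCr8, each running from 250 bases before the gene's start to 50 after it. Those of Nup214, Nup133 and Nup98 are shown here: Nup214 leads the set, Nup133 alone among the rest shares its rarest motif, and Nup98 had the next smallest p after Nup214 for CBD under the neutral cue. Capitals mark the cyclic AMP response element TGACGTCA, the ETS core CCGGAAG and the CCAAT box, on either strand, so that ATTGG is the CCAAT box read on the other strand. The Nup214 promoter lies at chr3:35652629-35652928 on the plus strand, that of Nup133 at chr19:68838643-68838942 on the minus strand, and that of Nup98 at chr1:166003317-166003616 on the minus strand; each is printed along its gene's strand.
Nup214: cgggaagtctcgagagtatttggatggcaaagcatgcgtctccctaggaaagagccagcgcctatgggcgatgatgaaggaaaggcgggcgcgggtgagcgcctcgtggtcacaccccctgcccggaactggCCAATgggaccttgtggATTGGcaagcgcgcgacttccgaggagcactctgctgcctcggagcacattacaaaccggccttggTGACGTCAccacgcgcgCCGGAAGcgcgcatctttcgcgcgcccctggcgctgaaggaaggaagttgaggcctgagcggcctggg
Nup133: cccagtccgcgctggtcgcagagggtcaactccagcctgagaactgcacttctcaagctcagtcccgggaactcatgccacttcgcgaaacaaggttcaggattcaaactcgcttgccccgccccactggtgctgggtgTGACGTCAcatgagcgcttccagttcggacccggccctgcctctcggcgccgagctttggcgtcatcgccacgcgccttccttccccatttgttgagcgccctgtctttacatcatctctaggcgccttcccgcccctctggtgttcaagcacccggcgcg
Nup98: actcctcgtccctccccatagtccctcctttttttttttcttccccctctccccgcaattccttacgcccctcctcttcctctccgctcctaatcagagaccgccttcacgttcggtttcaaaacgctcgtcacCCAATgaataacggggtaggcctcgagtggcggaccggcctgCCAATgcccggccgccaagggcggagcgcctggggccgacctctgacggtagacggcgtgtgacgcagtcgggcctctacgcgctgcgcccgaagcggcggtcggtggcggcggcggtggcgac

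In Nup214 the full palindrome TGACGTCA, the sequence bound by CREB, began 35 bases before the start, with CCGGAAG beginning 18 bases before it and the CCAAT boxes beginning 118 and 101 bases before it. In Nup133 TGACGTCA began 111 bases before the start. Of the 24 promoters, 2 held TGACGTCA, against 1.83% of all 33469 promoters searched, and 5 held CCGGAAG (Nup155, Nup214, Rae1, Sec13 and Nup37), against 8.75% of all. CCAAT was in 9 (37.5%), the same share as in all promoters. The GC box GGGCGG was in 17 of the 24 (70.8%), against 33.1% of all, and Nup214 was among those without it. The E-box CACGTG was in 3, against 6.42% of all, and the TATA box TATAAA was in 1 (Sec13), against 14.2%. These 6 motifs were searched on both strands, and no matches overlapped in the printed promoters. The members' promoters were richer in G and C, with a median of 62.8% against 51.7% for all promoters. Those 33469 promoters were not limited to the genes tested here, nor matched on level or on G and C. A match is a description of these letters and not a measured site.

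Nup214 was lowest in the vehicle rats given the neutral cue. With CBD and the anxiety cue it ran from 53.1 to 64.7 CPM, with a median of 57.5. With CBD and the neutral cue it ran from 49.4 to 66.1 CPM, with a median of 57.4. With vehicle and the anxiety cue it ran from 49.3 to 64.9 CPM, with a median of 62.3. Vehicle with the neutral cue stood below these: its 8 libraries ran from 34.8 to 54.8 CPM, with a median of 48.3. All 4 groups overlapped, but 18 of the 24 libraries of the other groups lay above the highest vehicle library with the neutral cue. Nup214 was chosen for being lower in that group than with vehicle and anxiety cue. Nothing is read from this count, for which no share of all genes was taken. The means were 58.0 ± 4.70, 58.1 ± 5.74, 60.5 ± 5.28 and 47.9 ± 6.77 CPM for CBD anxiety cue, CBD neutral cue, vehicle anxiety cue and vehicle neutral cue (SD, n = 8 each). The first 3 of these differed by less than the SD of any of them.

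**Figure D1:**
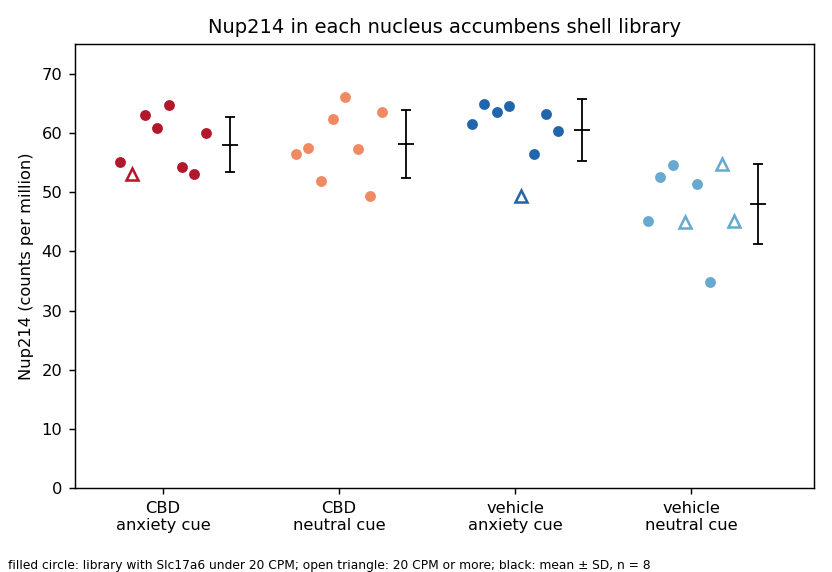
Nup214 in CPM in each of the 32 libraries, by group, with the mean and SD (n = 8) in black; open triangles are the 5 libraries with Slc17a6 at 20 CPM or more. The vehicle neutral cue libraries reach 54.8 CPM at most, and 18 of the other 24 libraries lie above that. Nup214 was chosen for being lower in this group than with vehicle and anxiety cue, so nothing is read from that count.

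The contrast that chose Nup214, anxiety cue over neutral cue in vehicle rats, is given without a test. Its log2 fold change was 0.34 (SE 0.078), and 7 of 8 anxiety cue libraries lay above all 8 neutral cue libraries. Of all genes tested, 0.24% had at least 7 libraries above in this way, and 0% passed an adjusted p of 0.05. The exception was anxiety cue library 5, at 49.3 CPM, which was also the library with the most Slc17a6 of all 32, at 45.7 CPM. The lowest of all 32 was vehicle neutral cue library 6, at 34.8 CPM. Without library 5 the log2 fold change was 0.374, and without library 6 it was 0.281.

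In rats given CBD the same cue contrast was independent of the choice of Nup214 and could be tested. Nup214 had a log2 fold change of -0.001 there (SE 0.078, 95% interval -0.16 to 0.16, adjusted p = 0.999 by edgeR's quasi-likelihood test). An exact permutation test over all 12870 arrangements of the 16 libraries gave a 2-sided p of 0.994. The difference between the cue contrasts, -0.34, contains the contrast that chose the gene and was not tested.

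CBD over vehicle, taken as the mean of both cues, is likewise independent of that choice. Nup214 was at 0.11 (SE 0.055, adjusted p = 0.693), with an unadjusted p of 0.056. Within each cue the CBD contrast shares its vehicle libraries with the contrast that chose the gene, and is a description. Under the anxiety cue it was -0.06 (SE 0.077), and under the neutral cue 0.28 (SE 0.078), with 6 of 8 CBD libraries above the highest vehicle library. Of all genes, 0.862% had at least 6 above in this way.

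Of the 5 libraries high in Slc17a6, 3 belonged to the vehicle neutral cue group, where Nup214 was lowest. The 5 libraries with Slc17a6 at 20 CPM or more held 45.0 to 54.8 CPM of Nup214, with a median of 49.3, and the other 27 held 34.8 to 66.1, with a median of 57.4. Within vehicle neutral cue the 3 high libraries averaged 48.3 CPM of Nup214, with a median of 45.1. The other 5 averaged 47.7 CPM, with a median of 51.3 and library 6 lowest at 34.8. Among those 27, the vehicle groups alone gave 56.5 to 64.9 CPM with the anxiety cue (n = 7) and 34.8 to 54.6 CPM with the neutral cue (n = 5). Those groups do not overlap, as was so, in either direction, for 0.504% of all genes; Nup214 was chosen on these libraries, and nothing is read from that share. With the septal, cortical and oligodendrocyte marker levels as covariates the vehicle cue contrast was 0.271, and without the 10 libraries high in Plin1 it was 0.433. That last removal left 3 vehicle neutral cue libraries, numbers 6, 7 and 8. Of these, libraries 7 and 8 had Slc17a6 at 36.1 and 39.8 CPM. The part of tissue make-up in these values beyond that was not tested.

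**Figure D2:**
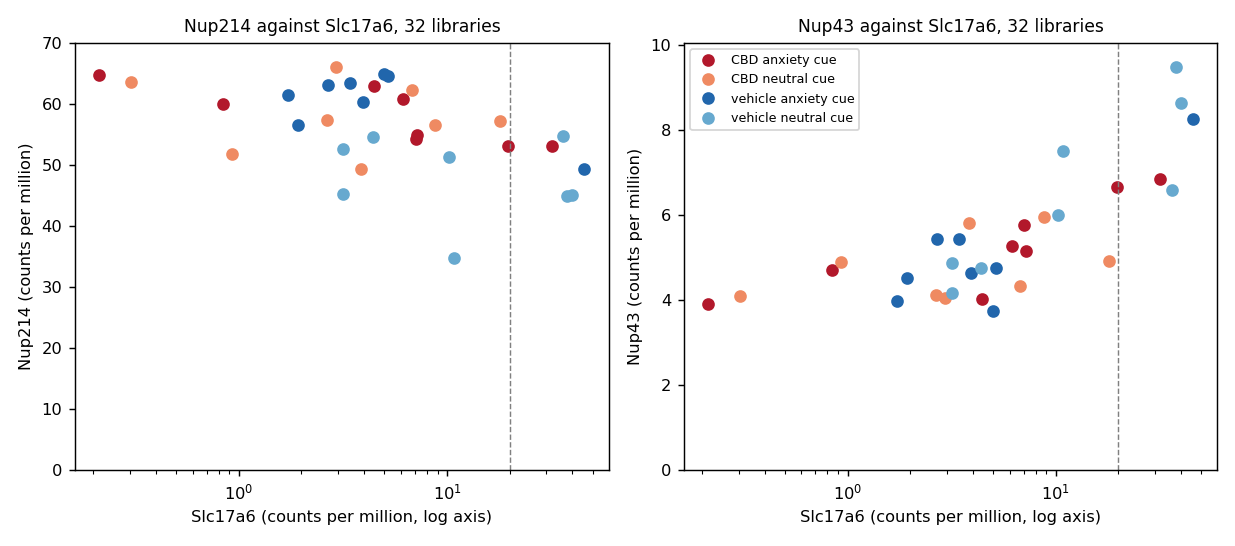
Nup214 (left) and Nup43 (right) in CPM against Slc17a6 in CPM on a log axis, 1 point per library and coloured by group; the dashed line is at 20 CPM. Nup214 stays at or below 54.8 CPM right of the line, and Nup43 is at 6.6 to 9.49 CPM there against 3.74 to 7.51 CPM in the other 27 libraries.

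The partners of Nup214 on the cytoplasmic face differed less between groups. Nup88, which anchors Nup214 to the pore, averaged 41.7 ± 2.06 CPM with CBD and anxiety cue, 43.1 ± 3.79 with CBD and neutral cue, 42.4 ± 2.47 with vehicle and anxiety cue and 40.6 ± 2.31 with vehicle and neutral cue (SD, n = 8 each). Every group overlapped every other. Rae1, an mRNA export factor that binds Nup98, had the smallest scatter of the 26 genes, with a within-group coefficient of variation of 4.91%. Its group means lay between 26.7 and 28.2 CPM, the lowest in vehicle rats with the neutral cue. Aaas encodes aladin, whose loss in humans causes a syndrome of the adrenal gland and nerves. It averaged 24.0 ± 2.10, 23.5 ± 1.0, 22.6 ± 1.86 and 21.4 ± 2.07 CPM in the same order of groups, and its mean CBD contrast of 0.11 (SE 0.044, adjusted p = 0.655) had the smallest p of the 26 genes, 0.0191 unadjusted.

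Among the channel proteins Nup98, like Nup214, was lowest in vehicle rats with the neutral cue. Nup98 carries repeats that form the permeability barrier and is found at both faces of the pore. It ran from 56.5 to 72.2 CPM with CBD and anxiety cue (median 63.8), 61.4 to 72.0 with CBD and neutral cue (median 67.6), 57.4 to 72.4 with vehicle and anxiety cue (median 66.4) and 48.6 to 66.2 with vehicle and neutral cue (median 57.3). Under the neutral cue 5 of 8 CBD libraries lay above the highest vehicle library, against 2.57% of all genes with at least 5, and the groups overlapped. The log2 fold change there was 0.20 (SE 0.058, adjusted p = 0.094 by edgeR). DESeq2, alone among the alternatives, put it below the threshold of 0.05 (adjusted p = 0.0392). Over the 12 other settings the log2 fold change ran from 0.111 to 0.223. Nup98 was at 0.09 (SE 0.041, adjusted p = 0.684) for the mean CBD contrast and at -0.04 (SE 0.058) for the cue in CBD rats.

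Nup62, Nup58 and Nup54, which join to fill the central channel, lay closer to 0. Nup62, which also joins the Nup214 and Nup88 complex, averaged 30.7 ± 2.12 CPM with CBD and anxiety cue, 30.8 ± 3.28 with CBD and neutral cue, 30.6 ± 3.15 with vehicle and anxiety cue and 30.6 ± 3.0 with vehicle and neutral cue. Its log2 fold changes lay between -0.002 and 0.003 in the 5 contrasts. Its 95% intervals ended 0.14 to 0.15 either side of 0 in the 4 contrasts between single groups (SE 0.070) and 0.10 either side for the mean CBD contrast (SE 0.050). Nup54 averaged 15.8 ± 1.48 CPM with CBD and neutral cue and 16.4 ± 2.39 CPM with vehicle and neutral cue, at -0.06 (SE 0.088, adjusted p = 0.726).

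The membrane proteins were higher in vehicle rats with the anxiety cue than in those with the neutral cue, and are given as values because that contrast was the one used for choosing. Pom121, which anchors the pore early in its assembly, ran from 81.5 to 107 CPM with vehicle and anxiety cue (median 91.1) and from 72.3 to 89.0 CPM with vehicle and neutral cue (median 81.0). There 5 of 8 anxiety cue libraries lay above the highest neutral cue library, against 2.72% of all genes with at least 5, at a log2 fold change of 0.18 (SE 0.060). In CBD rats Pom121 averaged 91.0 ± 3.96 CPM with the anxiety cue and 85.1 ± 8.93 CPM with the neutral cue, at 0.10 (SE 0.060, adjusted p = 0.995).

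Nup210, a membrane glycoprotein known from mouse muscle and neural precursor cells as a gene of differentiation, was also lowest in vehicle rats with the neutral cue. It ran from 37.5 to 53.5 CPM with CBD and anxiety cue, 35.1 to 50.7 with CBD and neutral cue, 30.5 to 52.4 with vehicle and anxiety cue and 26.1 to 43.5 with vehicle and neutral cue. Under the neutral cue 5 of 8 CBD libraries lay above the highest vehicle library, at 0.27 (SE 0.104, adjusted p = 0.146). Over the 12 other settings that log2 fold change ran from 0.124 to 0.413. Its mean CBD contrast was 0.15 (SE 0.073, adjusted p = 0.685). The lowest vehicle anxiety cue library, at 30.5 CPM, was again library 5. Ndc1, the third membrane protein, averaged 18.3 ± 1.79, 17.4 ± 1.31, 18.5 ± 2.35 and 16.4 ± 2.45 CPM in that order of groups.

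**Figure D3:**
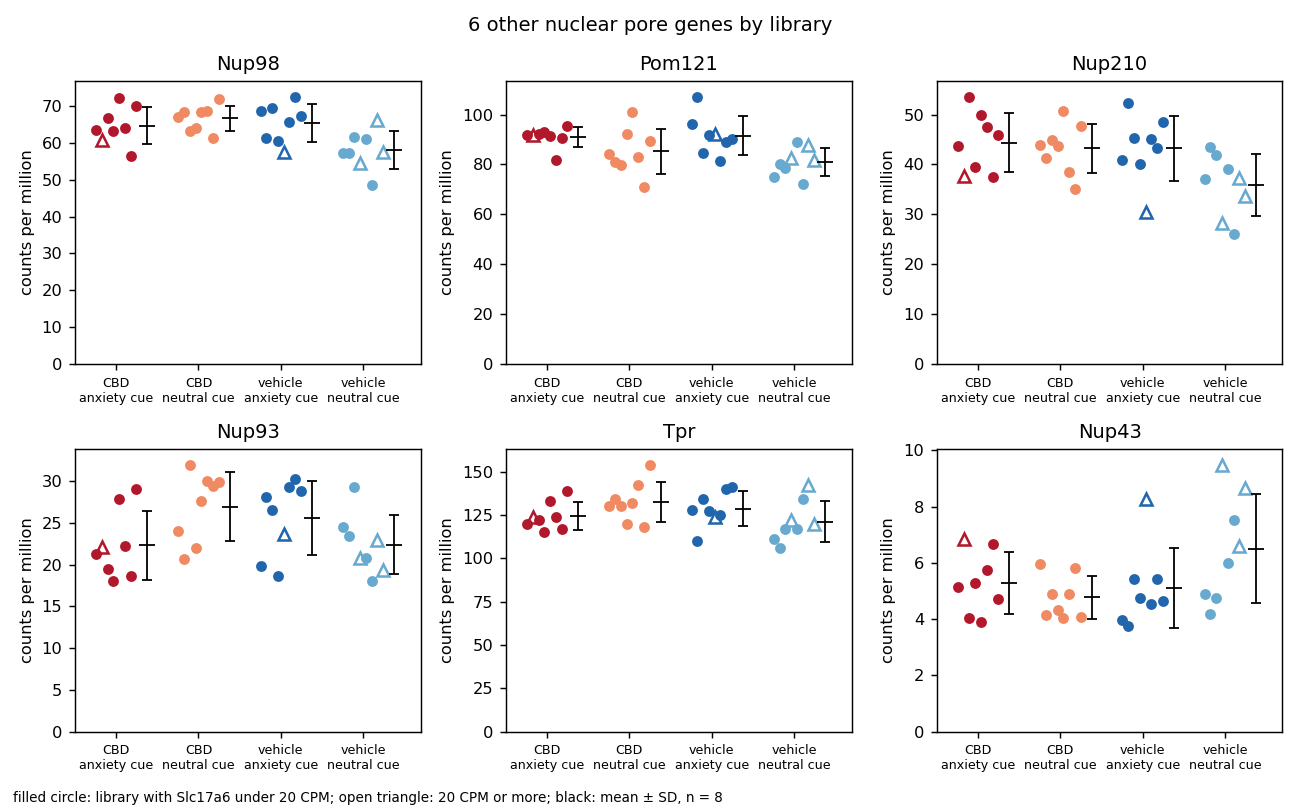
CPM of Nup98, Pom121, Nup210, Nup93, Tpr and Nup43 in each of the 32 libraries, by group, with mean and SD (n = 8) in black; open triangles are libraries with Slc17a6 at 20 CPM or more. Nup98, Pom121 and Nup210 have their lowest group mean in vehicle neutral cue rats, while Nup43 has its highest there, with 3 of the 8 libraries marked as triangles.

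In the inner ring Nup93, the scaffold that holds the ring together, had the widest differences. It ran from 18.0 to 29.1 CPM with CBD and anxiety cue (median 21.7), 20.7 to 32.0 with CBD and neutral cue (median 28.5), 18.7 to 30.3 with vehicle and anxiety cue (median 27.3) and 18.1 to 29.3 with vehicle and neutral cue (median 21.9). All groups overlapped. Its cue contrast in CBD rats, -0.27 (SE 0.118, 95% interval -0.51 to -0.03), had the smallest p of the 26 genes in that comparison, 0.0287 unadjusted and 0.995 adjusted. The CBD contrast was -0.20 (SE 0.118) under the anxiety cue and 0.27 (SE 0.118, adjusted p = 0.187) under the neutral cue.

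The other inner ring genes lay closer together. Nup35, which binds the membrane and Nup93, averaged 26.9 ± 2.64 CPM with CBD and 24.8 ± 1.72 CPM with vehicle under the anxiety cue, at 0.12 (SE 0.068, adjusted p = 1). The large scaffold proteins Nup188 and Nup205 and the linker Nup155 had log2 fold changes between -0.04 and 0.11 in the 5 contrasts.

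In the outer coat Nup43, a small subunit, was highest in vehicle rats with the neutral cue, where 19 of the 26 genes were lowest. Its counts were few, at 54 to 197 per library. It averaged 5.29 ± 1.09 CPM with CBD and anxiety cue, 4.77 ± 0.764 with CBD and neutral cue, 5.10 ± 1.42 with vehicle and anxiety cue and 6.51 ± 1.93 with vehicle and neutral cue. The CBD contrast under the neutral cue was -0.45 (SE 0.168, adjusted p = 0.139). It was -0.049 with the same marker covariates and -0.677 without the libraries high in Plin1. That removal kept vehicle neutral cue libraries 7 and 8, which were high in Slc17a6. Nup43 went with Slc17a6, at 6.6 to 9.49 CPM in the 5 high libraries (median 8.27) and 3.74 to 7.51 in the other 27 (median 4.75). By the GRCr8 gene table Nup43 overlaps Pcmt1, and the strand setting of the counting is unknown here, so reads of these genes cannot be told apart with certainty.

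Of the other coat genes, Nup85 and Nup107 had their lowest mean in vehicle rats with the neutral cue. Nup85 averaged 23.9 ± 2.06, 23.4 ± 2.15, 23.0 ± 2.64 and 20.9 ± 2.21 CPM in the order CBD anxiety cue, CBD neutral cue, vehicle anxiety cue and vehicle neutral cue, with a mean CBD contrast of 0.11 (SE 0.053, adjusted p = 0.685). Nup107, at the junction of the Y stem, averaged 20.1 ± 2.12, 20.9 ± 1.43, 21.2 ± 1.65 and 19.0 ± 1.67 CPM. Sec13, shared with the coat of vesicles that leave the endoplasmic reticulum, stayed between group means of 33.9 and 35.0 CPM, and its log2 fold changes lay between -0.05 and 0.03. Nup133, which shares TGACGTCA with Nup214, averaged 16.4 ± 1.73, 16.5 ± 1.16, 16.8 ± 1.70 and 15.8 ± 1.92 CPM, and was at -0.006 (SE 0.077) for the cue in CBD rats and 0.01 (SE 0.055) for the mean CBD contrast.

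The 3 basket genes had lower means with the anxiety cue in CBD rats, and none passed the test. Tpr, the long coiled coil that forms the basket, averaged 124 ± 7.92 CPM with CBD and anxiety cue and 132 ± 11.5 CPM with CBD and neutral cue, at -0.09 (SE 0.061, adjusted p = 0.995). Nup153, which holds the basket to the pore, ran from 54.0 to 62.3 CPM with CBD and anxiety cue and from 58.0 to 64.4 CPM with CBD and neutral cue. Its means of 57.2 ± 2.6 CPM and 60.3 ± 2.3 CPM in that order (SD, n = 8 each) lay further apart than the SD of either group. There 6 of 8 anxiety cue libraries lay below all 8 neutral cue libraries, against 0.381% of all genes with at least 6 below. Nup153 was named after its values were seen, because these groups overlapped so little, so nothing is read from that share. Its log2 fold change was -0.08 (SE 0.054, unadjusted p = 0.161 and adjusted p = 0.995 by edgeR's quasi-likelihood test). Nup50, a mobile basket protein that helps release imported cargo, was at -0.01 (SE 0.069).

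**Figure D4:**
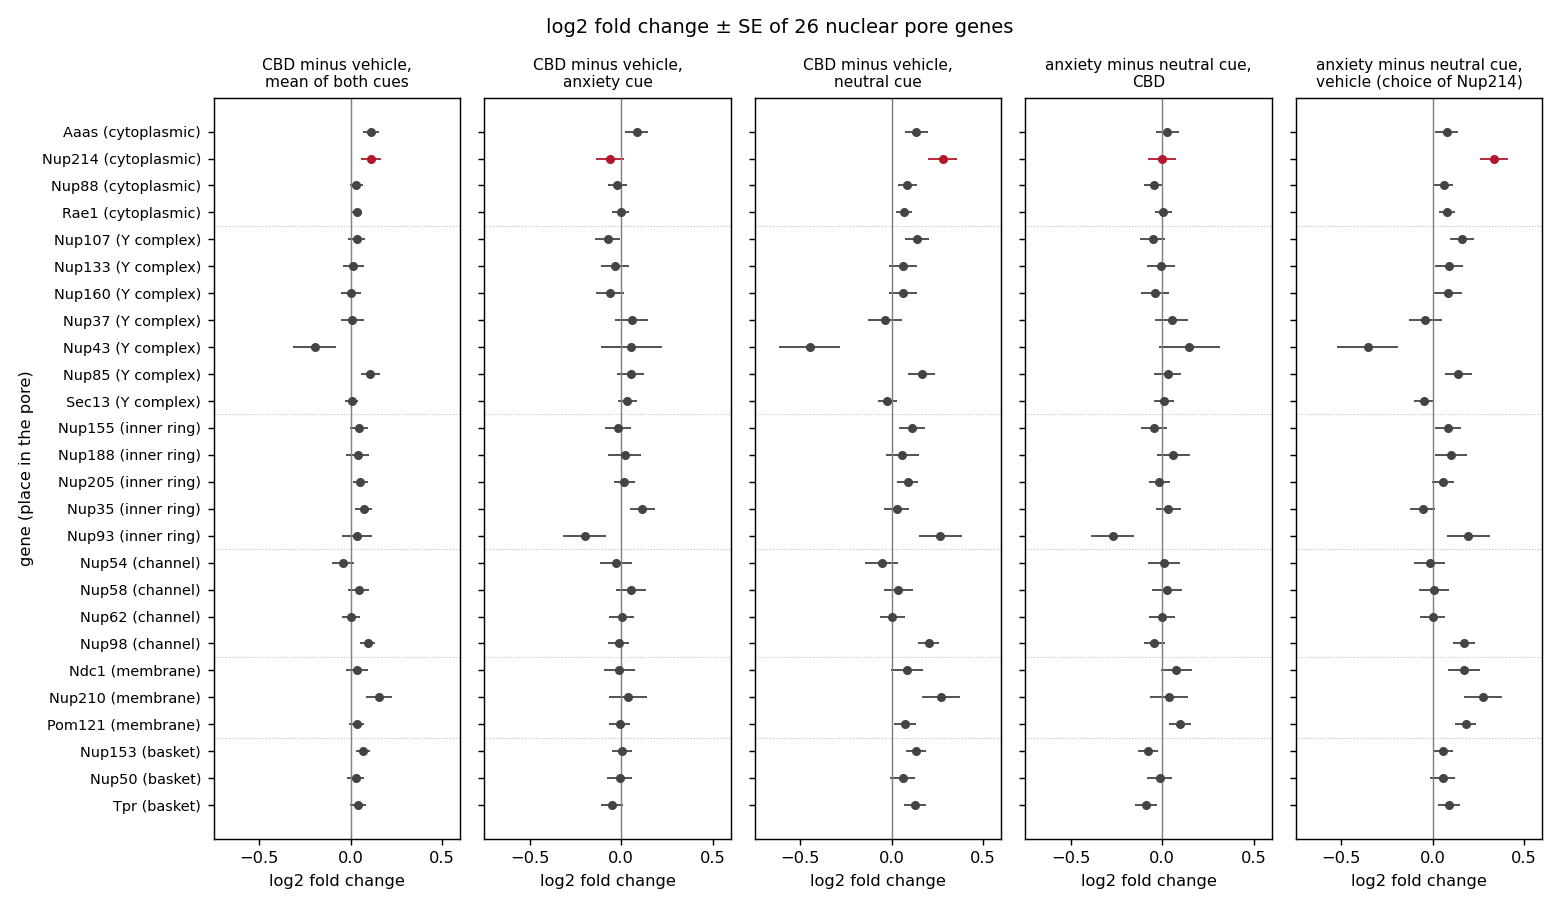
Log2 fold change with its SE for the 26 nuclear pore genes, grouped by place in the pore, in 5 contrasts (each titled with its direction; Nup214 in red). Most points lie right of 0 for CBD minus vehicle under the neutral cue (22 of 26) and for the vehicle cue contrast that chose Nup214 (20 of 26), and they scatter around 0 for the cue in CBD rats (13 of 26 above 0).

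No member of the set passed an adjusted p of 0.05 in edgeR's quasi-likelihood test in any contrast, where 0% of all genes passed. For the cue in CBD rats, 13 of 26 were above 0, against 48.8% of all genes, with a median log2 fold change of 0.002 against -0.003 for all genes. At an unadjusted p under 0.05 there was 1 member, Nup93, lower, against 3.94% of all genes. For CBD under the anxiety cue, 12 of 26 were above 0, against 48.3% of all genes, with a median of -0.006 against -0.003. At an unadjusted p under 0.05 there were 0 members, against 1.58% of all genes.

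For CBD under the neutral cue, 22 of 26 were above 0, against 50.9% of all genes, with a median of 0.078 against 0.005. The exceptions were Nup43, Nup54, Nup37 and Sec13. Several lists of cell type markers had medians further from 0 in this contrast. Of the 12 medium spiny neuron genes 12 were above 0, with a median of 0.524. So were 4 of 5 liver genes tested (median 3.943) and 3 of 3 cortical genes tested (median 1.514). Oligodendrocyte genes (8 of 8, median -0.418) and septal and pallidal genes (6 of 6, median -1.173) were below 0. Also below 0 were 6 of 6 microglia genes (median -0.208) and 6 of 6 fat cell genes (median -4.033). With the septal, cortical and oligodendrocyte covariates 19 of the 26 pore genes were above 0, and with liver and fat covariates 21 were; the part of medium spiny neuron and microglia genes was not tested. At an unadjusted p under 0.05, 9 members were higher, against 10.5% of all genes, and 1 was lower (Nup43), against 12% of all genes; all 8 oligodendrocyte genes were lower at that p. Nup214 is among the 9 and had been chosen through the same vehicle libraries. DESeq2 passed 2 members here at an adjusted p under 0.05, Nup214 and Nup98, among 377 genes, and 0 in the other 4 contrasts. Without the 10 libraries high in Plin1, edgeR passed 5 members here, where 15.7% of all genes passed. That left 3 of 8 vehicle neutral cue libraries, of which libraries 7 and 8 were high in Slc17a6. The vehicle cue contrast shares the vehicle neutral cue libraries with this one. It had 20 of 26 above 0, against 50.1% of all genes, and a median of 0.081 against 0.000. By edgeR 6 members had an unadjusted p under 0.05, against 12.7% of all genes, and the choice of Nup214 used this contrast. Among marker genes, 12 of 12 medium spiny neuron genes (median 0.446) and 4 of 5 liver genes tested (median 2.201) were above 0. Below 0 were 8 of 8 oligodendrocyte genes (median -0.111) and 6 of 6 septal and pallidal genes (median -0.747). Microglia genes (6 of 6, median -0.152), fat cell genes (6 of 6, median -0.941) and cortical genes tested (3 of 3, median -0.758) were also below 0.

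The mean CBD contrast averages the neutral cue (22 of 26 above 0, median 0.078) and the anxiety cue (12 of 26, median -0.006). For this mean over both cues, 24 of 26 were above 0, against 50.2% of all genes, with a median of 0.034 against 0.001. Among marker genes, 12 of 12 medium spiny neuron genes were above 0, with a median of 0.249, and 8 of 8 oligodendrocyte genes were below 0, with a median of -0.287, all 8 at an unadjusted p under 0.05 and the smallest adjusted p at 0.467 by edgeR. Septal and pallidal genes were below 0 in 6 of 6, with a median of -0.470, and microglia genes in 5 of 6, with a median of -0.096. Fat cell genes were below 0 in 6 of 6 (median -2.274), and liver genes were above 0 in 4 of 5 tested (median 2.466). With the septal, cortical and oligodendrocyte covariates 16 of the 26 pore genes were above 0, without the 10 libraries high in Plin1 18 were, and without the 5 high in Slc17a6 19 were. The 4 members with an unadjusted p under 0.05 were Aaas, Nup98, Nup210 and Nup85, all higher, against 3.16% of all genes that were higher at that p. These genes are not independent of each other, and the median was not tested.

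The summed level of the 26 genes was lowest in vehicle rats with the neutral cue. It was 923 to 1021 CPM with CBD and anxiety cue, 898 to 1039 with CBD and neutral cue, 928 to 1015 with vehicle and anxiety cue and 864 to 968 with vehicle and neutral cue. The means were 969 ± 36.9, 978 ± 44.8, 976 ± 29.8 and 908 ± 30.9 CPM (SD, n = 8 each). The number of the 26 genes above their own median over the 32 libraries had a median of 14.5 (9 to 21) in libraries with CBD and anxiety cue, 15 (9 to 19) with CBD and neutral cue, 15.5 (10 to 19) with vehicle and anxiety cue and 8 (5 to 14) with vehicle and neutral cue. Vehicle neutral cue gave the lowest group mean for 19 of 26 members, against 36.4% of all genes. It gave the highest for 3, against 36.9% of all genes. Nup214, chosen through these vehicle libraries, is among the 19 and enters the sums. Vehicle neutral cue also held 3 of the 5 libraries high in Slc17a6 and 5 of the 10 high in Plin1. The part of tissue make-up in these values was not tested.

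**Figure D5:**
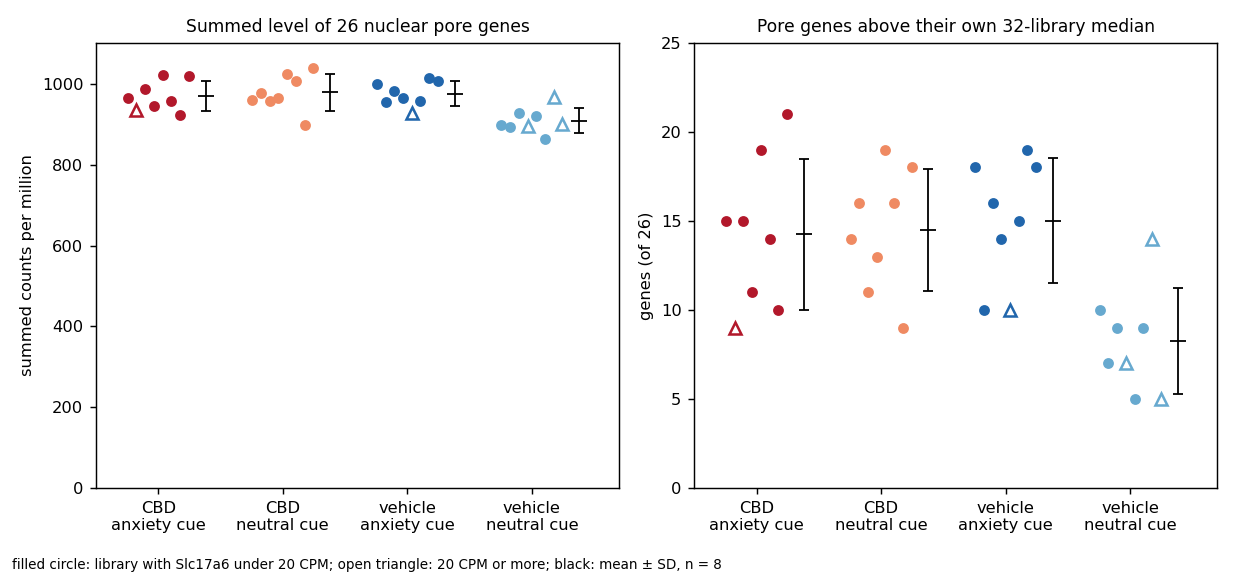
Left, the summed CPM of the 26 nuclear pore genes in each library; right, how many of the 26 genes lie above their own median over the 32 libraries, both by group with mean and SD (n = 8) in black and open triangles for Slc17a6 at 20 CPM or more. The vehicle neutral cue group sits lowest in both, at a mean of 908 CPM on the left, and overlaps every other group. Both panels include Nup214, which was chosen for being lower in that group than with vehicle and anxiety cue.

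The pore genes varied little between libraries of a group. Their biological coefficient of variation in the edgeR fit had a median of 0.0986, against 0.164 for all genes tested, and 25 of 26 lay below the median of all genes, where 50% of genes lie. It ran from 0.0623 for Rae1 to 0.223 for Nup43, the exception. Nup214 was at 0.11. Genes were not matched on level for this comparison.

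Genes that work with the pore were read from lists of importins, exportins, the Ran cycle, mRNA export, the lamina and envelope, and pore proteins whose symbols fall outside the naming rule. No gene of these lists passed an adjusted p of 0.05 in edgeR, where 0% of all genes passed. Ranbp2, the main protein of the cytoplasmic filaments, averaged 143 ± 17.7 CPM with CBD and anxiety cue, 160 ± 34.3 with CBD and neutral cue, 145 ± 33.4 with vehicle and anxiety cue and 136 ± 21.1 with vehicle and neutral cue. Xpo1, the exportin that docks on Nup214, averaged 98.5 ± 5.66, 97.0 ± 11.8, 92.9 ± 11.0 and 98.4 ± 11.2 CPM in that order and was at 0.08 (SE 0.078, adjusted p = 1) for CBD under the anxiety cue.

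The Ran cycle sets the direction of transport. Its values were mostly negative in the contrasts that hold the vehicle neutral cue group, where most pore genes were above 0. Under the neutral cue 6 of its 7 genes were below 0 for CBD over vehicle, with a median of -0.116 against 0.005 for all genes. Rangrf was lowest at -0.32 (SE 0.114, adjusted p = 0.126). For the mean CBD contrast 6 of 7 were again below 0, with a median of -0.031. In vehicle rats the cue contrast also had 6 of 7 below 0, with a median of -0.088. For the cue in CBD rats 6 of 7 were above 0, with a median of 0.052 against -0.003 for all genes. CBD under the anxiety cue had 6 of 7 above 0 as well, with a median of 0.036. Of all genes, 48.3% to 50.9% were above 0 in these contrasts. The part of tissue make-up in these values was not tested.

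Of the 21 mRNA export genes 13 were above 0 for CBD under the neutral cue, with a median of 0.041. Thoc5, a subunit of the complex that couples transcription to export, was at 0.18 (SE 0.055, adjusted p = 0.102), and DESeq2 gave it an adjusted p of 0.0471. Nxt1, partner of the export receptor Nxf1, was at -0.33 (SE 0.156, adjusted p = 1) for CBD under the anxiety cue. Of 17 importins tested, 12 were above 0 for CBD under the neutral cue, with Ipo13 at 0.17 (SE 0.072, adjusted p = 0.171). Of 7 exportins 5 were above 0, with Xpo7 at 0.10 (SE 0.059, adjusted p = 0.292).

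Of the 15 lamina and envelope genes 9 were above 0 in that contrast, and Lmna, the A-type lamin, was at -0.38 (SE 0.134, adjusted p = 0.125). Of the 7 tested pore proteins outside the naming rule, 6 were above 0 there, with a median of 0.225. Nupl2, the older symbol of Nup42, which works with Gle1 beside Nup214, was at 0.23 (SE 0.077, adjusted p = 0.123), and at -0.16 (SE 0.077, adjusted p = 0.995) for the cue in CBD rats.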

How the data were processed

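PolyA-selected RNA of the rat nucleus accumbens shell was sequenced, per the labels' protocols. The deposited values are whole-number counts of reads for each gene symbol, made by the authors. STAR, featureCounts and DESeq2 are named in the submitters' processing notes without versions, as are the builds mRatBN7.2 and Rnor_6.0 without roles. The strand setting is unknown, and 11 of the 26 pore genes overlap another gene in the GRCr8 gene table (Nup214 overlaps none), so their counts are uncertain.

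Counts were tested in R 4.3.3 by the quasi-likelihood test of edgeR 4.0.16. Low-count genes (17263) were dropped by filterByExpr with groups, leaving 17059, and libraries were scaled by TMM. All 32 libraries entered 1 fit with 4 group means. Benjamini-Hochberg adjustment ran over all genes tested, with a threshold of 0.05. CPM rest on TMM-scaled library sizes, and the permutation test used log2 CPM with a prior count of 2. Pairs of libraries within groups (112) differed by 5.24 to 103 in chi-square per degree of freedom, so none was a duplicate. Library numbers are in deposition order within a group and pair nothing. DESeq2 1.42.0, voom of limma 3.58.1, other filters and scaling, marker covariates and library removals were alternatives. The scripts were tested on simulated data.

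Members and lists were chosen with earlier results of these data known. Named in each comparison are Nup214, its partners Nup88, Nup62 and Nup98, the member with the highest mean CPM in each place in the pore, and the 3 with the smallest p. Other members named were chosen after their values were seen. All columns of the table were assigned to a library, and 0 counts lacked a gene name.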

Additional observations from a re-analysis of the deposited data

Results flagged for a closer look

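Within groups of 8, 7 of the 104 combinations of pore gene and group held a library whose distance to its nearest neighbour took more than the Dixon limit of 0.526 of the group's range. Chance gives about 1 in 20 such groups. Vehicle anxiety cue library 5, the library with the most Slc17a6, accounted for 3 of them. Its Nup43 was 8.27 CPM, with the next library at 5.43. Its Nup54 was 19.6 CPM, with the next at 16.5. Its Nup88 was 36.8 CPM, with the next at 41.7.

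Both remaining vehicle libraries singled out were from the neutral cue group and also had Slc17a6 at 20 CPM or more. Library 7, the shallowest at 11.65 M counts, had Nup160 at 26.5 CPM, with the next at 22.5. Library 4 had Nup107 at 15.4 CPM, with the next at 18.4. In the CBD groups, anxiety cue library 6 had Pom121 at 81.9 CPM, with the next at 90.7, and neutral cue library 6 had Nup58 at 47.9 CPM, with the next at 37.9. That last library also held a summed 1180 CPM of cortical neuron genes.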

How the results depend on the processing

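No paired analysis was possible because library numbers follow deposition order and the labels tie no library to an animal, litter or batch. Over 12 other settings and 32 removals of a single library, the Nup214 cue contrast in vehicle rats kept its sign, at 0.271 to 0.433. The cue contrast of Nup214 in CBD rats changed sign without a call: it was 0.010 with no filter on low counts, 0.027 with composition covariates, 0.016 with the 5 Slc17a6-high libraries removed and 0.026 with the 10 Plin1-high ones removed. It moved furthest, to -0.096, with the 10 Alb-high libraries removed, and it ran from -0.032 to 0.027 when each library was left out. Without the 10 libraries high in Plin1, edgeR passed 2972 genes (16.9%) for the cue in vehicle rats. Among them were 4 pore genes, Nup43, Nup214, Nup210 and Nup85. For CBD under the neutral cue it passed 2761 genes (15.7%), with 5 pore genes, Nup43, Nup214, Nup210, Aaas and Nup85. Nup214 had been chosen on the first of these contrasts and shares its vehicle libraries with the second, so its calls are descriptions. Genes of the transport lists passed 31 times, summed over the 4 contrasts between single groups. No share of all genes was taken for that sum, and nothing is read from it. That removal left 3 vehicle neutral cue libraries, of which libraries 7 and 8 were high in Slc17a6, and the cause was not tested. DESeq2 passed 2 pore genes for CBD under the neutral cue and 1 transport gene. Removal of a single library passed 0 members in every contrast, though calls over all genes for CBD under the neutral cue reached 165 without vehicle anxiety cue library 5. Members above 0 for the mean CBD contrast numbered 16 to 24 over the settings, and 21 to 24 with a library left out. Every pore gene had at least 54 counts in every library. The part of depth in the spread between libraries was not tested.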
